A study of Mus musculus with 4 samples.

Results

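Genes of adipocytes and of lipid uptake were followed through RNA sequencing of mouse mammary tumours: Lpl, Cd36 and Fabp4 of fatty acid uptake, Plin1 and Cidec of the lipid droplet, Pnpla2 of lipolysis, Aqp7 of glycerol exit, and the hormone genes Adipoq and Lep. They were chosen by symbol, and all 9 were among the 23238 symbols in the count files. The tumours grew in female FVB mice aged 14 weeks with a PyMT transgene, which encodes the middle T oncoprotein of polyoma virus. Of 4 libraries, 2 were labelled Nr1d1+/+ and 2 were labelled Nr1d1-/-, and all of them carry PyMT. Nr1d1 encodes REV-ERBα, a repressor of the circadian clock that also controls lipid metabolism genes. The labels do not give the promoter that drives PyMT, the exons that the null allele lacks, or whether each replicate is a different mouse. The p-values therefore reflect the spread between these libraries alone, and that spread may be technical.

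An adipocyte takes up fatty acids that lipoprotein lipase frees from circulating lipoproteins, stores them as triglyceride in a large droplet coated by perilipin, and releases them again by lipolysis. The mammary epithelium grows within a fat pad, so adipocytes border mammary tumours and can be carried into a tumour sample. Lpl, Cd36, Fabp4 and Pnpla2 are not restricted to adipocytes: muscle, macrophages, endothelium or secretory epithelium are known to express some of them. Adipoq, Plin1 and Cidec are the more specific markers of mature fat cells, and Lep is their hormone of stored fat.

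Total counts ranged from 15905404 to 19116279 per library. Levels are counts per 1000000, scaled by edgeR's TMM factors (CPM). Nr1d1 itself was at 20.1 and 10.3 CPM in the Nr1d1+/+ libraries and 10.6 and 12.8 CPM in those labelled Nr1d1-/- (log2 fold -0.37, edgeR adjusted p = 0.436), so the directions below rest on the labels. The library Nr1d1-/- replicate 1 stood apart in skeletal muscle transcripts. The summed level of 30 skeletal muscle markers was 34 and 29.5 CPM in the Nr1d1+/+ libraries, 1029.9 CPM in that library and 41.7 CPM in Nr1d1-/- replicate 2. Where 4 levels are listed below, they follow the order Nr1d1+/+ replicate 1, Nr1d1+/+ replicate 2, Nr1d1-/- replicate 1, Nr1d1-/- replicate 2. In that library 28 of the 30 markers had counts, among them Tnnt3 at 189 CPM, Acta1 at 148 CPM and Myh1 at 139 CPM. In Nr1d1-/- replicate 2 Tnnt3 and Myh1 were at 0 and Acta1 was at 0.682 CPM. The 9 genes are therefore given in both Nr1d1-/- libraries, and the fold of each of the 8 tested ones with and without replicate 1.

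The intervals of single libraries are exact 95% Poisson intervals that cover counting error only. The genotypes were compared with edgeR's quasi-likelihood test over 14801 genes, with p-values adjusted by Benjamini-Hochberg over all of them and a call at an adjusted p under 0.05. By that rule 16.5% of all tested genes were higher and 17.3% lower in the libraries labelled Nr1d1-/-, or 33.9% either way. Each SE given with an edgeR fold is the absolute log2 fold divided by the square root of the F statistic of the test. It is therefore not independent of the p-value. Of the 9 genes 8 had enough counts to be tested and Lep did not. Each of the 8 had more than 10 counts in at least 1 library of each genotype. The filter needs 2 libraries above its cutoff. Adipoq, Plin1 and Cidec had 1, 3 and 5 counts in Nr1d1+/+ replicate 1, so they did not meet it from the Nr1d1+/+ libraries alone.

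The markers of mature fat cells were scarce in all 4 tumours, and so was Cd36, while Lpl, Pnpla2, Fabp4 and Aqp7 were abundant. Per kb of transcript, the mean level over the 4 libraries was 143 CPM for Lpl, 71.4 for Pnpla2, 68.9 for Fabp4 and 22.4 for Aqp7. It was 3.25 CPM per kb for Adipoq, 1.21 for Cidec, 1.2 for Cd36, 0.33 for Plin1 and 0.0367 for Lep. Lpl, Pnpla2, Fabp4 and Aqp7 together made up between 96.7% and 99.3% of the summed level of the 9 genes in each library. As labels of fat cells, the specific markers were therefore weakly represented: Adipoq reached at most 10.7 CPM and Plin1 at most 2.34 CPM. In bulk tissue, fewer cells of a type and less RNA per cell cannot be told apart.

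**Figure D1:**
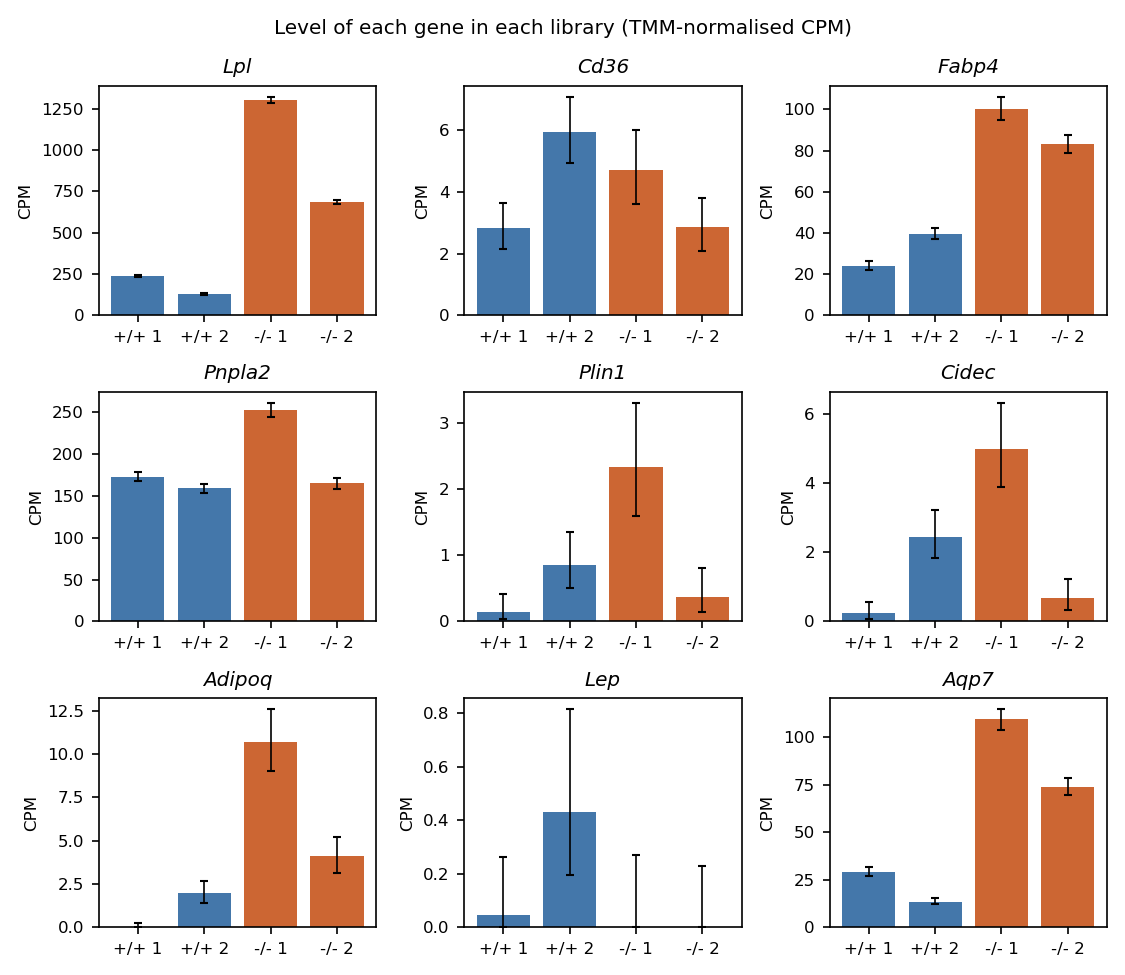
Level of each of the 9 genes in each library, in TMM-normalised CPM on a linear axis from 0, with Nr1d1+/+ libraries in blue and Nr1d1-/- libraries in orange. Error bars are exact 95% Poisson intervals of the count in that library. Lpl, Fabp4 and Aqp7 were higher in both Nr1d1-/- libraries, while Plin1 and Cidec were highest in Nr1d1-/- replicate 1 and second in Nr1d1+/+ replicate 2.

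Of the 8 tested genes, 4 were called higher in the libraries labelled Nr1d1-/- and none lower (Lpl, Fabp4, Aqp7 and Adipoq), against 16.5% of all tested genes called higher. Their median log2 fold was 1.44, beside -0.01 for all tested genes. The remaining 4, Pnpla2, Plin1, Cidec and Cd36, did not pass. The same 4 called genes were those of the 8 whose values did not overlap between the genotypes. Such separation was common in this data set, at 70.5% of all tested genes.

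Lpl, lipoprotein lipase, which splits triglyceride of circulating lipoproteins at the vessel wall, was the most abundant of the 9 genes in 3 of the libraries. It was at 239 and 131 CPM in Nr1d1+/+ replicates 1 and 2 and at 1303 and 689 CPM in Nr1d1-/- replicates 1 and 2. Both Nr1d1-/- libraries lay above both Nr1d1+/+ libraries, and the closest pair, Nr1d1-/- replicate 2 over Nr1d1+/+ replicate 1, still differed 2.88-fold. Lpl rose by 2.43 on the log2 scale, with an SE of 0.36 and an adjusted p of 0.00293 by edgeR. Without Nr1d1-/- replicate 1, the library with muscle transcripts, the log2 fold was 1.90 and the edgeR adjusted p was 0.00242.

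Cd36, a fatty acid translocase of the plasma membrane, did not follow Lpl. It was at 2.84 and 5.93 CPM in the Nr1d1+/+ libraries and at 4.69 and 2.85 CPM in those labelled Nr1d1-/-, so that the genotypes overlapped and Nr1d1+/+ replicate 2 was highest. Its log2 fold of -0.23 had an SE of 0.49 and did not pass (edgeR adjusted p = 0.741). It was -0.62 without Nr1d1-/- replicate 1. Its sign turned to 0.38 without Nr1d1+/+ replicate 2, to 0.10 without Nr1d1-/- replicate 2 and to 0.25 once GC and length trends were taken out. Fabp4, the adipocyte fatty acid binding protein that carries fatty acids in the cytosol, was at 24.2 and 39.5 CPM in the Nr1d1+/+ libraries and at 100.3 and 83.1 CPM in those labelled Nr1d1-/-. Fabp4 rose by 1.52 on the log2 scale, with an SE of 0.26 and an adjusted p of 0.00401 by edgeR. The Nr1d1-/- libraries lay close together, and the smallest ratio between genotypes was 2.1.

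Plin1 coats the lipid droplet and guards it against lipases, and Cidec drives droplets to fuse into the large droplet of white fat. Plin1 had 3, 18, 32 and 6 counts, or 0.142 and 0.861 CPM in the Nr1d1+/+ libraries and 2.34 and 0.372 CPM in those labelled Nr1d1-/-. Cidec had 5, 51, 68 and 11 counts, or 0.236, 2.44, 4.98 and 0.682 CPM in the same order. Both genes ranked the libraries alike: Nr1d1-/- replicate 1 first, then Nr1d1+/+ replicate 2, Nr1d1-/- replicate 2 and Nr1d1+/+ replicate 1. The genotypes overlapped for both. The log2 fold was 1.36 for Plin1 (SE 1.0, edgeR adjusted p = 0.321) and 1.03 for Cidec (SE 0.98, edgeR adjusted p = 0.445). Without Nr1d1-/- replicate 1 both turned, to -0.42 for Plin1 and -0.96 for Cidec.

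Pnpla2 encodes adipose triglyceride lipase, the first lipase of lipolysis, which many tissues express. Its level was 173 and 159 CPM in the Nr1d1+/+ libraries and 253 and 165 CPM in those labelled Nr1d1-/-, and only Nr1d1-/- replicate 1 stood above the rest. Its log2 fold of 0.33 had an SE of 0.22 and did not pass (edgeR adjusted p = 0.277). It was -0.01 without Nr1d1-/- replicate 1 and -0.06 when counts were scaled by library size alone, and without Nr1d1-/- replicate 2 it was 0.61 and passed (edgeR adjusted p = 0.0488). Aqp7, the aquaglyceroporin through which glycerol leaves the fat cell, was at 29.2 and 13.6 CPM in the Nr1d1+/+ libraries and at 109.7 and 74 CPM in those labelled Nr1d1-/-. Aqp7 rose by 2.10 on the log2 scale, with an SE of 0.35 and an adjusted p of 0.00393 by edgeR, and it ranked the 4 libraries as Lpl did.

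Adipoq encodes adiponectin, the most abundant hormone of fat cells, and it had 1 and 41 counts in the Nr1d1+/+ libraries and 146 and 66 counts in those labelled Nr1d1-/-. Its level was 0.0473 CPM (95% interval 0.0012 to 0.263) and 1.96 CPM (1.41 to 2.66) against 10.7 CPM (9.03 to 12.6) and 4.09 CPM (3.16 to 5.21). The groups did not overlap, and Nr1d1-/- replicate 2 was 2.09 times Nr1d1+/+ replicate 2. Adipoq rose by 2.86 on the log2 scale, with an SE of 0.83 and an adjusted p of 0.0296 by edgeR, the highest p of the 4 calls. The call was lost without Nr1d1+/+ replicate 1 (log2 fold 1.85, edgeR adjusted p = 0.0619) and without Nr1d1-/- replicate 1 (2.02, edgeR adjusted p = 0.107). It was also lost with DESeq2 (DESeq2 adjusted p = 0.247), with edgeR's older quasi-likelihood estimate (edgeR adjusted p = 0.071), with no count filter (0.0674) and once GC and length trends were taken out (0.0555). Without Nr1d1+/+ replicate 2 the reference is a single count, and the fitted log2 fold of 7.05 is no measure of size.

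Lep encodes leptin, the fat cell hormone that signals stored energy, and it was near the limit of counting. It had 1 and 9 counts in the Nr1d1+/+ libraries and 0 counts in both libraries labelled Nr1d1-/-. The interval of a count of 0 reached up to 0.27 CPM in Nr1d1-/- replicate 1 and 0.229 CPM in Nr1d1-/- replicate 2. Nr1d1+/+ replicate 1 lay below both of these limits at 0.0473 CPM. Nr1d1+/+ replicate 2 lay above them at 0.431 CPM, with an interval of 0.197 to 0.817 CPM that reached below both. No difference of Lep between the genotypes was detectable at this depth. Lep was too low to be tested in the main fit. With no count filter its log2 fold was -5.15, with an SE of 2.74, and it did not pass (edgeR adjusted p = 0.239). That fold rests on 0 counts in both libraries labelled Nr1d1-/- and is no measure of size. Leptin transcripts were thus absent from the counts of the library with the most Adipoq.

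**Figure D2:**
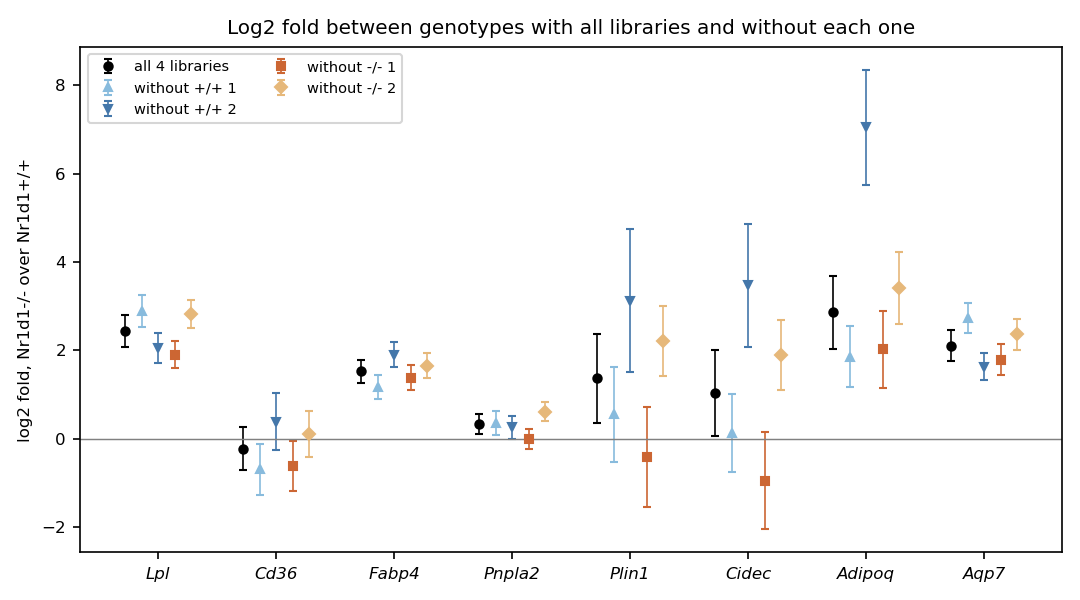
Log2 fold between genotypes (libraries labelled Nr1d1-/- over Nr1d1+/+) of the 8 tested genes, with all 4 libraries and without each library in turn. Bars are standard errors derived from the F statistic of the test. Lpl, Fabp4 and Aqp7 stayed between 1.17 and 2.89 in every fit shown, while Plin1 and Cidec fell below 0 without Nr1d1-/- replicate 1.

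Nr1d1-/- replicate 1 was then left out. Lpl, Fabp4 and Aqp7 were still called higher by edgeR, which is 3 of 8 genes against 13.0% of all tested genes in that fit, with log2 folds of 1.90, 1.38 and 1.79. Adipoq was not called, although its log2 fold of 2.02 was larger, with an SE of 0.88. The median log2 fold of the 8 genes was then 0.69, beside -0.01 for all tested genes. Without Nr1d1-/- replicate 2 it was 2.05, and 5 of the 8 were called, against 16.6% of all tested genes. Without Nr1d1+/+ replicate 1, 3 of the 8 were called higher, against 11.3% of all tested genes, and without Nr1d1+/+ replicate 2, 4 of the 8, against 8.19%.

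The 2 Nr1d1-/- libraries were then set against each other. With 1 library on each side there is no test, and the intervals of these ratios are exact 95% Clopper-Pearson intervals that cover counting error only. All 8 genes with counts in both libraries were higher in replicate 1, and the interval of each lay above 1, while 51.9% of all tested genes were higher there. Their median log2 ratio was 0.82, beside 0.03 for all genes. At least 2-fold differences were seen for 3 of the 8, Cidec, Plin1 and Adipoq, beside 6.16% of all tested genes that were at least 2-fold higher in replicate 1.

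The ratio of replicate 1 over replicate 2 was 7.3 for Cidec (interval 3.84 to 15.3), 6.3 for Plin1 (2.6 to 18.4) and 2.61 for Adipoq (1.94 to 3.55). It was 1.89 for Lpl, 1.64 for Cd36 (1.11 to 2.46), 1.54 for Pnpla2, 1.48 for Aqp7 and 1.21 for Fabp4 (1.12 to 1.3). The droplet coat genes thus had the widest gap and Fabp4 the narrowest. The skeletal muscle list differed far more, with a summed ratio of 24.7 and a median log2 ratio of 4.93 over 14 tested markers.

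The 2 Nr1d1+/+ libraries differed as widely in the same droplet and hormone genes. Cidec was 10.3 times higher in replicate 2 than in replicate 1 (interval 4.15 to 33.1), and Plin1 was 6.07 times higher (1.77 to 32.2). Adipoq, with its single count in replicate 1, had a ratio of 41.5 (7.04 to 1680). Lpl and Aqp7 went the other way, with ratios of replicate 1 over replicate 2 of 1.83 (1.75 to 1.92) and 2.15 (1.87 to 2.48). Of the 8 tested genes 4 (Adipoq, Cidec, Plin1 and Cd36) were at least 2-fold higher in Nr1d1+/+ replicate 2, against 4.46% of all tested genes. Neither Nr1d1+/+ library had skeletal muscle transcripts above 34 CPM in sum.

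**Figure D3:**
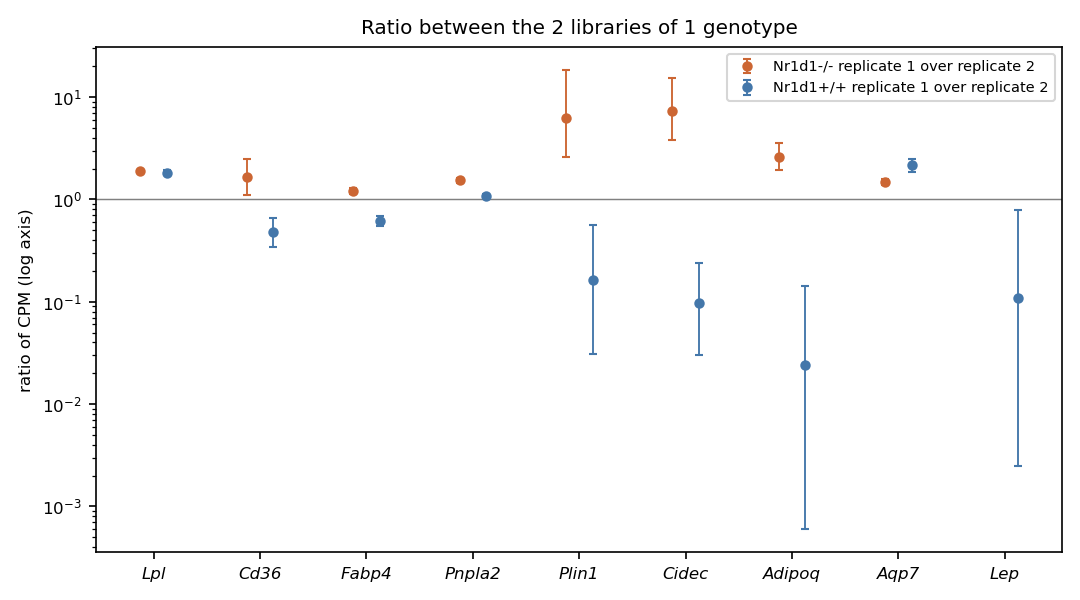
Ratio of CPM between the 2 libraries of 1 genotype for each gene, on a log axis, with exact 95% Clopper-Pearson intervals of the counts as bars and a grey line at 1. The Nr1d1-/- ratios (orange) all lay above 1 and were highest for Cidec and Plin1, while the Nr1d1+/+ ratios (blue) were above 1 for Lpl, Aqp7 and Pnpla2 and below 1 for the other genes. Lep has no Nr1d1-/- ratio because both counts were 0.

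Counts of the other genes per count of Adipoq were not constant across libraries. Lpl had 66.6 counts per Adipoq count in Nr1d1+/+ replicate 2 (interval 48.9 to 93), 122 in Nr1d1-/- replicate 1 (103 to 144) and 168 in Nr1d1-/- replicate 2 (132 to 218). Aqp7 had 6.93, 10.3 and 18.1 in the same libraries. Fabp4 had 20.1, 9.38 and 20.3, so that its ratio to Adipoq was alike in Nr1d1+/+ replicate 2 and Nr1d1-/- replicate 2. Cidec had 1.24 (0.808 to 1.92), 0.466 (0.344 to 0.625) and 0.167 (0.0794 to 0.318). Plin1 had 0.439 (0.237 to 0.781), 0.219 (0.145 to 0.323) and 0.0909 (0.0322 to 0.209). The Plin1 interval of Nr1d1-/- replicate 1 overlapped those of both other libraries. In Nr1d1+/+ replicate 1 the same ratios rest on 1 Adipoq count, and Lpl had at least 908 counts per Adipoq count by the lower bound of the interval. The 8 genes therefore did not scale with Adipoq as a single unit.

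The genes lie apart in the genome (GRCm38, the assembly also called mm10): Fabp4 on chromosome 3 from 10204088 to 10208576, Aqp7 on chromosome 4 from 41033074 to 41048139, Cd36 on chromosome 5 from 17781690 to 17888801, Lep on chromosome 6 from 29060220 to 29073877 and Cidec on chromosome 6 from 113424634 to 113435760. Plin1 lies on chromosome 7 from 79720218 to 79732903, Pnpla2 on chromosome 7 from 141455198 to 141460743, Lpl on chromosome 8 from 68880491 to 68907448 and Adipoq on chromosome 16 from 23146536 to 23158028. All are protein-coding, and none overlaps another gene of GENCODE M21. The annotation and strand setting behind the deposited counts are not given, and a part of antisense reads in them was not tested.

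The 250 bases before the start of transcription are shown for some of the genes that split the Nr1d1+/+ libraries in opposite ways (RefSeq, GRCm38.p6, 5′ to 3′). They are Aqp7, higher in replicate 1, and Adipoq, Plin1 and Cidec, higher in replicate 2. Capitals mark the letters AGGTCA or their reverse complement, the half-site that nuclear receptors such as PPARγ and REV-ERBα are known to bind.
Aqp7, chr4:41048137-41048386, minus strand: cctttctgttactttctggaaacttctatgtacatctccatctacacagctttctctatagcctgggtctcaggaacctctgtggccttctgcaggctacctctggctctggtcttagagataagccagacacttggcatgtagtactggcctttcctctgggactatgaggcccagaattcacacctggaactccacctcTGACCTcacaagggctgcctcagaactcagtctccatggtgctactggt
Adipoq, chr16:23146286-23146535, plus strand: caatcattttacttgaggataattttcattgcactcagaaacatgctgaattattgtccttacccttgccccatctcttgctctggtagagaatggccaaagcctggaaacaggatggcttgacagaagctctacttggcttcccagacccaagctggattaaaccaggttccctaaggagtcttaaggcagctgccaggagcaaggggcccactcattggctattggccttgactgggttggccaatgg
Plin1, chr7:79732777-79733026, minus strand: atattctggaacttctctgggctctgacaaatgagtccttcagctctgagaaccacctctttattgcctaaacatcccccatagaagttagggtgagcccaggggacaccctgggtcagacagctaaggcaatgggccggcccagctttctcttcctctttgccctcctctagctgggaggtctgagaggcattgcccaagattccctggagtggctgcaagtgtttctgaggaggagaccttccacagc
Cidec, chr6:113435761-113436010, minus strand: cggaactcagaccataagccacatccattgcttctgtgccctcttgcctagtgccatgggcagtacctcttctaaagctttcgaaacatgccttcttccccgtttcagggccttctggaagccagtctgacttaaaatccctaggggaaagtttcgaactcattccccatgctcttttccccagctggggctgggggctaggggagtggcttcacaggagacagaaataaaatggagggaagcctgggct

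RefSeq entries matched 7 of the 9 genes, with 9 start sites in all. The half-site AGGTCA was found on either strand in 3 of these 9 windows, those of Aqp7 (both start sites, whose windows overlap and share a match) and Cd36, and in 14.0% of all 32851 windows of that length. In the Aqp7 window shown it begins at position -49 from the start. In the Cd36 window, which is not shown, it begins at position -228. Cd36, like Adipoq, Plin1 and Cidec, was higher in Nr1d1+/+ replicate 2, so a match did not go with 1 direction. The letters TTGCNNCAA and the TATA box letters TATAAA, searched on both strands, were in none of the 9 windows. They were in 1.74% and 12.4% of all windows. A match describes letters only.

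Other genes of white adipocytes were tested too. Of 22 listed genes 20 were tested, and 6 rose, 1 fell and 13 did not pass, beside 16.5% of all tested genes higher and 17.3% lower. Their median log2 fold was 0.77. Cfd, the secreted protease adipsin, rose from 2.74 and 9.38 CPM to 42.5 and 20.8 CPM (log2 fold 2.38, SE 0.53, edgeR adjusted p = 0.0104). Cebpa, a transcription factor of fat cell differentiation, rose from 12 and 18.3 CPM to 40.2 and 30.2 CPM (log2 fold 1.22), and Mgll, the lipase that ends lipolysis, from 17.5 and 20.0 CPM to 41.8 and 46.9 CPM. Acsl1, which activates fatty acids for triglyceride synthesis, fell from 50.2 and 62.3 CPM to 26.6 and 20.2 CPM. Without Nr1d1-/- replicate 1, 3 genes of the list rose and 2 fell, against 13.0% and 14.4% of all tested genes. How many passed depended on which library was left out. With each library left out in turn, in the order used for levels, the median log2 fold was 0.83, 1.05, 0.63 and 1.11. For all tested genes it was -0.02, -0.02, -0.01 and -0.04 in those fits.

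Of the other reference genes of the fat cell, Pparg, Slc2a4 and Lipe did not pass. Pparg, which encodes the receptor that drives adipocyte differentiation, was at 0.473, 0.67, 0.879 and 0.744 CPM (edgeR adjusted p = 0.628). Slc2a4, the insulin-responsive glucose transporter, was at 1.8, 1, 3.3 and 2.48 CPM (edgeR adjusted p = 0.156). Lipe, hormone-sensitive lipase, was at 12.5, 18.9, 25.6 and 15.7 CPM (edgeR adjusted p = 0.37). Among 16 adipogenic transcription factors, all tested, 4 rose and 1 fell, with a median log2 fold of 0.49. Of all tested genes 16.5% were higher and 17.3% lower. How many of the factors passed depended on which library was left out. Their median log2 fold was then 0.54, 0.51, 0.43 and 0.57, leaving out each library in the order used for levels. The 4 lowest p-values among those called were of Ppargc1a, Rxrg, Cebpa and Ebf1, all higher.

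Partners of Lpl and Cd36 in lipid uptake were tested as well. Of 29 listed genes 23 were tested, 4 rose, 3 fell and 16 did not pass, with a median log2 fold of 0.32. These shares were near the 16.5% higher and 17.3% lower among all tested genes. How many passed depended on which library was left out. The median log2 fold of the list was then 0.2, 0.26, 0.3 and 0.12, leaving out each library in the order used for levels. Gpihbp1, the endothelial protein that holds lipoprotein lipase on the capillary wall, rose from 2.74 and 5.88 CPM to 16.3 and 37.4 CPM (log2 fold 2.64, SE 0.47, edgeR adjusted p = 0.00494). Unlike Lpl, Gpihbp1 was higher in Nr1d1-/- replicate 2 than in replicate 1. Fabp5, the epidermal fatty acid binding protein, rose from 114 and 160.3 CPM to 259 and 305 CPM (log2 fold 1.04, SE 0.21), and Slc27a4, a fatty acid transport protein, rose with a log2 fold of 0.62. Fabp3, the form of muscle and heart, was at 0.425, 0.383, 5.27 and 0.93 CPM and passed (edgeR adjusted p = 0.0405). Fabp3 was picked out after its values were seen, because it was highest in the library with muscle transcripts. The genes of this list called lower were Acsl1 (log2 fold -1.27), Acsl3 (-0.72) and Got2 (-0.53), given so that every call is named.

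Of 22 listed genes of the droplet coat and of lipolysis 19 were tested, 4 rose, 3 fell and 12 did not pass, with a median log2 fold of 0.36. These shares too were near the 16.5% and 17.3% of all tested genes. How many passed depended on which library was left out. The median log2 fold of the list was then 0.08, 0.47, 0.2 and 0.5, leaving out each library in the order used for levels. Plin3, a perilipin of most cells, rose from 71.9 and 62.5 CPM to 117 and 108 CPM (log2 fold 0.75), and Bscl2, which encodes seipin of droplet formation, rose with a log2 fold of 0.78. Plin2, the perilipin of cells other than fat cells and of milk fat globules, fell from 157 and 190.3 CPM to 115 and 122 CPM (log2 fold -0.55, SE 0.18, edgeR adjusted p = 0.0434). Lipa, lysosomal acid lipase, fell from 158 and 109.8 CPM to 50.8 and 48.2 CPM (log2 fold -1.43). Plin2 was thus far more abundant than Plin1 in each of the 4 libraries, where Plin1 was at most 2.34 CPM. Of 15 tested genes of adipokine signalling and glycerol handling, 4 rose, 2 fell and 9 did not pass, again beside 16.5% and 17.3% of all tested genes. Among the higher were Rarres2, Cfd and the water and glycerol channel gene Aqp1, and among the lower the glycerol kinase gene Gyk. The number of calls among these 15 depended on which library was left out. Their median log2 fold was 1.05 with all 4 libraries. It was 0.76, 1.76, 0.53 and 0.75 with each library left out in the order used for levels.

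Markers of other cell types that can express some of the 9 genes are given for comparison, and their part in the results was not tested. Endothelial markers summed to 91.1 and 108 CPM in the Nr1d1+/+ libraries and 172 and 207 CPM in those labelled Nr1d1-/-, and 8 of 18 tested rose, against 16.5% of all tested genes. How many of them passed depended on which library was left out. Their median log2 fold was 0.91 with all 4 libraries. Leaving out each library in turn, in the order used for levels, gave 0.75, 0.99, 1.02 and 0.72. The median of all tested genes was between -0.04 and -0.01 in those fits. Macrophage markers summed to 403, 473, 465 and 638 CPM, and of 14 tested 4 rose and 2 fell. For this list and those that follow, the shares of all tested genes with all 4 libraries were 16.5% higher and 17.3% lower. Fibroblast and adipocyte precursor markers summed to 648, 1144, 1112 and 1199.7 CPM, with 2 of 13 tested higher and 1 lower. Epithelial markers summed to 6922, 5934, 10792 and 9958 CPM, with 4 of 10 higher and 1 lower, and milk secretion markers to 15010.4, 15484, 17618 and 16046 CPM, with none of 10 higher and 3 lower. Calls in both lists depended on which library was left out. The median log2 fold with all 4 libraries was 0.42 for the epithelial list and 0.34 for the milk list. Leaving out each library in the order used for levels gave 0.57, 0.26, 0.38 and 0.46 for the epithelial list. For the milk list it gave 0.01, 0.5, 0.14 and -0.68. Endothelial and macrophage sums were lower in Nr1d1-/- replicate 1 than in replicate 2, opposite to all 8 of the genes with counts in both.

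Brown adipocyte markers summed to 34.3, 28.7, 113 and 66.3 CPM, and of 8 tested 4 rose, against 16.5% of all tested genes. With Nr1d1-/- replicate 1 left out, 2 rose, against 13.0%. Ucp1, the uncoupling protein that defines brown fat, was at 0.0473 and 0.0478 CPM in the Nr1d1+/+ libraries, at 1.68 CPM in Nr1d1-/- replicate 1 and at 0 in Nr1d1-/- replicate 2, and it was too low to be tested. Elovl3 was at 0 in all 4 libraries. Of the called markers, Ppargc1a was at 13.5, 12.2, 40.4 and 28.0 CPM and Zic1 at 6.81, 5.41, 33.0 and 12.6 CPM. Cox8b, a respiratory subunit of brown fat and muscle, was at 0.378, 1.29, 11.9 and 2.17 CPM. Cox7a1 was at 7.85, 4.21, 15.4 and 12.6 CPM. Dio2, picked out after its values were seen, was not called and was highest in Nr1d1-/- replicate 2, at 6.14 CPM. The library with muscle transcripts thus had the highest Ucp1 and the highest level of each called brown adipocyte marker. It was also highest for each of the 9 genes except Cd36 and Lep. The part of muscle tissue in these values was not tested.

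**Figure D4:**
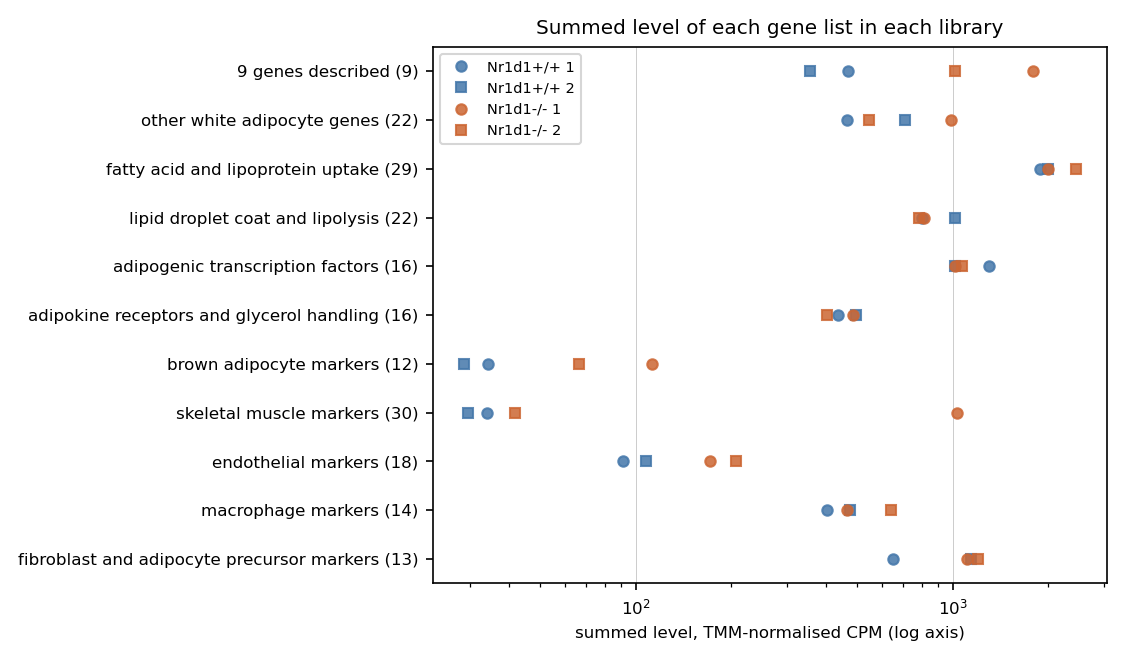
Summed level of the gene lists in each library, in TMM-normalised CPM on a log axis, with the number of genes per list in brackets. The epithelial and milk secretion lists are not drawn. Nr1d1+/+ libraries are in blue and Nr1d1-/- in orange, with circles for replicate 1 and squares for replicate 2. Skeletal muscle markers reached 1029.9 CPM in Nr1d1-/- replicate 1 and at most 41.7 CPM elsewhere. The sum of the 9 genes, of which Lpl made up 36.9% to 72.9%, was 469 and 354 CPM in the Nr1d1+/+ libraries and 1788 and 1018 CPM in those labelled Nr1d1-/-.

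The genes whose pattern over the 4 libraries was most like that of Lpl were sought among 10826 others that had counts in every library and averaged 5 CPM or more. Likeness was the root mean square distance of centred log2 CPM. Csrnp2 (0.039), Gpr165 (0.063), Myoz3 (0.077) and F10 (0.089) were among the closest, and 115 genes lay within 0.3. Csrnp2, for example, was at 20.0 and 10.6 CPM in the Nr1d1+/+ libraries and 102 and 57.2 CPM in those labelled Nr1d1-/-. For Adipoq no gene lay within 0.3, and the closest were Gm2083 (1.295), Zfp457 (1.384), Mup10 (1.463), Ifitm1 (1.53) and Gm22109 (1.555). Adipoq itself averaged under 5 CPM, so genes as low as Adipoq were not searched. Its pattern also rests on 1 count in Nr1d1+/+ replicate 1, so the lack of near genes does not set it apart. With 4 libraries such likeness is a description only.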

How the data were processed

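Total RNA was isolated with Trizol and made into libraries with a SMARTer Stranded kit from Clontech, as the labels' protocols state. The submitters' processing notes name TopHat and mm10. The values the authors deposited are raw counts for each gene symbol, per the file headers. Tool versions, the counting program, its annotation and its strand setting: not given in the sources used here.

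The members and gene lists were chosen with earlier results of these data known. Total counts were 19116279, 17768820, 15905404 and 18017279 (Nr1d1+/+ replicates 1 and 2, Nr1d1-/- replicates 1 and 2), with TMM factors of 1.11, 1.18, 0.858 and 0.895, so that 1 count was worth between 0.0473 and 0.0733 CPM. The filter filterByExpr (minimum count 10) left 14801 genes. They were tested with the bias-adjusted quasi-likelihood test of edgeR 4.0.16 (R 4.3.3). The design held genotype alone, leaving 2 residual degrees of freedom, and the common biological coefficient of variation was 0.249. The code was first run on simulated data. Transcript length and GC content came from GENCODE M21, using the longest protein-coding transcript of a gene where it has one.

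Named beside the 9 genes were up to 4 called genes per list, lowest p first, 7 reference genes whatever their values, the 3 skeletal muscle genes with the highest mean and the 5 genes most like each of Lpl and Adipoq, of which 1 is not reported here. Lists are described by counts and medians. Alternatives were other scalings, no filter, a mean of at least 5 CPM, DESeq2 (version 1.42.0), the older edgeR estimate, the replicate number as a block, GC and length trends removed by splines (5 degrees of freedom) and leaving out each library. Intervals cover counting error only, since the counts carry no molecular identifiers.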

Additional observations from a re-analysis of the deposited data

How the results depend on the processing

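The number of called genes fell from 5011 to 3236 when GC and length trends were taken out, and leaving out 1 library gave 2489 (without Nr1d1+/+ replicate 2) to 5013 (without Nr1d1-/- replicate 2). Scaled by library size alone, the median log2 fold of all genes moved from -0.01 to -0.38, and 1281 genes were higher and 4415 lower, in place of 2446 and 2565. The 9 genes had 4 calls, and 3 to 5 when 1 library was left out. Lpl, Fabp4 and Aqp7 kept their direction and their call under every alternative run, and Adipoq lost its call under 6. When 1 library was left out, the log2 fold ranged from -0.42 to 3.12 for Plin1 and from -0.96 to 3.47 for Cidec, both lowest without Nr1d1-/- replicate 1. Pnpla2 ranged from -0.01 to 0.61, the lowest with Nr1d1-/- replicate 1 left out, and was -0.06 with library size alone. For Cd36 it ranged from -0.70 to 0.38, was 0.10 without Nr1d1-/- replicate 2 and was 0.25 when trends were taken out. The causes were not tested. With 1 library left out, the lone library of a genotype is assumed to vary like the other group. The median log2 ratio of Nr1d1-/- replicate 1 over replicate 2 was 0.82, and 0.76 to 0.84 under the 4 alternatives run. The replicate block gave 5326 called genes and changed no call of the 9 genes. Differences between replicates 1 and 2 had a correlation of 0.026 between the genotypes across genes, so the numbers are not shown to pair the samples. Counts of calls in the other lists were more than 1.5 times lower in 25 cases, more than 1.5 times higher in 6 and within that range in 125. With a mean of at least 5 CPM required, Adipoq, Cd36, Cidec and Plin1 gave no value. At depths where 1 count is up to 0.0733 CPM, Lep and Plin1 lie near the limit of counting.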
